A study of Mus musculus with 2 samples.

Results

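The Mir106b-25 and Mir106a-363 clusters are the paralogs of the miR-17-92 cluster, that is, groups of microRNA (miRNA) genes related to it by sequence. They were followed here in the neural tube of mouse embryos. The Mir106b-25 cluster holds Mir106b, Mir93 and Mir25, and the Mir106a-363 cluster holds Mir106a, Mir18b, Mir20b, Mir19b-2, Mir92-2 (also called Mir92a-2) and Mir363. These 9 of the 1973 miRNA genes counted were chosen by cluster membership, with rows found through their gene identifiers, and all 9 were present in the tables. The series is a single group of 2 libraries of small RNA (under 30 nt) from neural tube of strain B6NCrl at embryonic day 11.5 (E11.5). Each library came from its own pool of healthy male and female embryos, 109 of them for replicate 1 and 88 for replicate 2, and no genetic change or treatment is named. With 1 tissue and 1 stage, the values describe levels and how far the 2 libraries, 1 per pool, differed.

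A miRNA is cut from a hairpin precursor and pairs with target mRNAs mainly through its seed, bases 2 to 8 of the mature strand, which lowers the output of those targets. The miR-17-92 cluster and its paralogs together carry a small set of seeds, and their miRNAs are known for promoting cell proliferation and survival, in part by lowering the cell cycle inhibitor Cdkn1a and the death protein Bcl2l11 (Bim). The Mir106b-25 cluster is transcribed with its host Mcm7, a subunit of the helicase that opens DNA for replication, and has been tied to proliferation of neural stem cells. In mice, loss of the miR-17-92 cluster is lethal around birth, whereas loss of either paralog cluster alone has little visible effect.

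The mature strands show how the 9 genes fall into seed groups, so they are given first, 5′ to 3′, with the seed in capitals. They come from RefSeq (build GRCm38.p6), in which all 9 genes and the 6 genes of miR-17-92 were found. The first group carries the miR-17 seed AAAGUGC and holds 4 of the 9 genes. Mir17 of the miR-17-92 cluster is added for comparison.
miR-106b-5p: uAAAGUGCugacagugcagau
miR-93-5p: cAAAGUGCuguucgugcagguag
miR-106a-5p: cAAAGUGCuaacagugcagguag
miR-20b-5p: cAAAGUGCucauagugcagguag
miR-17-5p: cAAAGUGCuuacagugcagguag
With positions counted from 1 at the 5′ end, miR-106a-5p differed from miR-17-5p by the single substitution A10U, the base of miR-106a-5p being given first. For miR-20b-5p the differences from miR-17-5p were C10U and U12C. For miR-93-5p they were G10U, U11A, U12C and C13A. These 3 strands thus differ from miR-17-5p only in their middle, while miR-106b-5p also differs at its first base (U1C), at G10U and at A20G.

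The other 5 genes carry 3 further seeds. Mir18b has the miR-18 seed AAGGUGC, Mir19b-2 the miR-19 seed GUGCAAA, and Mir25, Mir92-2 and Mir363 the miR-25/92 seed AUUGCAC. The strands of Mir18 (miR-18a-5p) and Mir19a, of the miR-17-92 cluster, are added for comparison.
miR-18b-5p: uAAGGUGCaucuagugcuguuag
miR-18a-5p: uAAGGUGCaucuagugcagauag
miR-19b-3p: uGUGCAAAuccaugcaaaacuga
miR-19a-3p: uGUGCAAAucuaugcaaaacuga
miR-25-3p: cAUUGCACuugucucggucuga
miR-92a-3p: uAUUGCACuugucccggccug
miR-363-3p: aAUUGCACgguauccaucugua
miR-18b-5p differed from miR-18a-5p by U18A and U20A. Over the first 21 bases, miR-25-3p and miR-92a-3p differed at 3 positions (C1U, U14C and U18C). Outside the shared seed miR-363-3p was unlike either, with 11 differences from miR-92a-3p over 21 bases.

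Identical strands limit what the counts of Mir92-2 and Mir19b-2 can show, because a read that fits more than 1 place in the genome was given to none of the genes. Such reads made up 25.2% of replicate 1 and 27.3% of replicate 2. The strand miR-92a-3p is the same in Mir92-2 and in Mir92-1 of the miR-17-92 cluster, and miR-19b-3p is the same in Mir19b-2 and Mir19b-1. The hairpins are shown with that strand in capitals, since the bases around it are what tells the copies apart.
Mir92-2: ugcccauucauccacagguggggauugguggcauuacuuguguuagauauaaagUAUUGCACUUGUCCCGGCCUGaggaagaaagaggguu
Mir92-1: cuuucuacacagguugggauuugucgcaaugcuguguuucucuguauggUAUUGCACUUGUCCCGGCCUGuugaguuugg
Mir19b-2: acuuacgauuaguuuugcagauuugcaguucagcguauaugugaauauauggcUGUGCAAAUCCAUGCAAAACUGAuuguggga
Mir19b-1: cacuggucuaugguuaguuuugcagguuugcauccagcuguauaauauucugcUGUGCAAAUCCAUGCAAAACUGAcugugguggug
The run shared through miR-92a-3p was 22 nt, with 1 further base on the 5′ side and 0 on the 3′ side. Through miR-19b-3p it was 25 nt, with 2 further bases on the 5′ side and 0 on the 3′ side. Reads wholly within these runs, those of the exact mature strands among them, were therefore counted for neither copy. The opposite strands of the hairpins differ between the copies. None of the other 7 genes had its mature strand in another of the 2202 hairpins of GENCODE M21. For 6 of those 7 the first 9 to 11 bases were already found in no other hairpin, and for Mir18b the first 18 bases were needed. The rest of the genome was not searched, and the number of reads each gene lost in this way was not analysed here.

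In GRCm38 (also called mm10), all 9 hairpins lie on the minus strand. Mir106b (ENSMUSG00000065514.1, chr5:138165737-138165818), Mir93 (ENSMUSG00000065527.1, chr5:138165523-138165610) and Mir25 (ENSMUSG00000065394.1, chr5:138165321-138165404) follow each other in that order of transcription, over 498 nt of Mcm7. Mir106b is intronic in the 2 Mcm7 transcripts annotated over it. Mir93 and Mir25 each lie inside an exon of 1 of the 3 Mcm7 transcripts annotated there, a retained-intron transcript, and in introns of the others. On the X chromosome, Mir106a (ENSMUSG00000065456.1, chrX:52742503-52742567), Mir18b (ENSMUSG00000077111.2, chrX:52742331-52742413), Mir20b (ENSMUSG00000076041.1, chrX:52742113-52742192), Mir19b-2 (ENSMUSG00000065473.1, chrX:52741983-52742066), Mir92-2 (ENSMUSG00000065613.1, chrX:52741838-52741928) and Mir363 (ENSMUSG00000070106.1, chrX:52741693-52741767) follow each other over 875 nt. Of these 6, Mir106a overlaps an annotated gene on its strand, by at most 5 bases of the last exons of 4 transcripts of the noncoding gene Kis2, and the other 5 lie in no annotated host.

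Reads counted on the same strand as a miRNA gene (own-strand counts) came to 3708662 in replicate 1 and 4055883 in replicate 2, and levels are given per 1000000 of these (CPM), with mean ± SD over n = 2. All 9 genes had at least 10 summed counts, and reads on the opposite strand of the 9 came to 1 for Mir106b and 1 for Mir93 in replicate 1 and 0 elsewhere. Of the tissue's marker list, 8 of 9 neural genes were measured, and 0 were at 0 counts. At least 3 of them have a strand shared with another hairpin, and all marker sums leave out reads that fit more than 1 place. The neural genes stood at 15784 and 12738 summed CPM in replicates 1 and 2. Markers of other cells were present too, from 7.82 and 7.89 CPM for the liver gene Mir122 to 24945 and 22302 CPM for the endothelial gene Mir126a. Mesenchymal genes (5 of 5 measured) stood at 23811 and 17507 summed CPM, muscle genes (4 of 5) at 1359 and 761, epithelial genes (4 of 4) at 3176 and 2899, red blood cell genes (2 of 2) at 520 and 368 and white blood cell genes (2 of 3) at 479 and 356. Mir133a-1 and Mir133a-2 of muscle were at 0 in reads that could be assigned to a single place, which does not show that their miRNA was absent. Which of these cells the 9 genes were expressed in was not tested, and in whole tissue more cells of a type and more RNA per cell cannot be told apart. Both strands of a hairpin are summed in its gene's count.

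The Mir106b-25 cluster was led by Mir93 and Mir106b at near-equal levels, with Mir25 far below. Mir93, whose miRNA lowers Cdkn1a and the type II TGF-beta receptor, had 38098 counts (10273 CPM) in replicate 1 and 41352 counts (10196 CPM) in replicate 2, or 10234 ± 54.6 CPM (SD, n = 2). That placed it at rank 17 of 1973 genes by mean level. Mir106b, which shares the seed and the target Cdkn1a, had 34489 counts (9300 CPM) and 35383 counts (8724 CPM), or 9012 ± 407 CPM, at rank 21. The ranges of Mir93 and Mir106b did not overlap, but the excess of Mir93 counts over Mir106b counts was small, at 1.10-fold in replicate 1 and 1.17-fold in the other library.

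Mir25, whose seed is that of miR-92a and which is known to lower Bim, had 2438 counts (657 CPM) in replicate 1 and 3176 counts (783 CPM) in replicate 2, or 720 ± 88.9 CPM, at rank 106. Both libraries thus held it an order of magnitude under its neighbours in the same stretch of Mcm7. The counts of Mir93 exceeded those of Mir25 by 15.6-fold in replicate 1 (95% exact interval 15.0 to 16.3) and by 13.02-fold in the other library (12.6 to 13.5). Within the cluster, Mir25 made up 3.25% of counts in replicate 1 (95% Wilson interval 3.13 to 3.38) and 3.97% in replicate 2 (3.84 to 4.11). Its strand has no identical copy among the hairpins, so the shared strands described above do not touch it. Whether the library preparation captured each miRNA equally well is unknown, and every ratio between genes here is a ratio of counts.

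**Figure D1:**
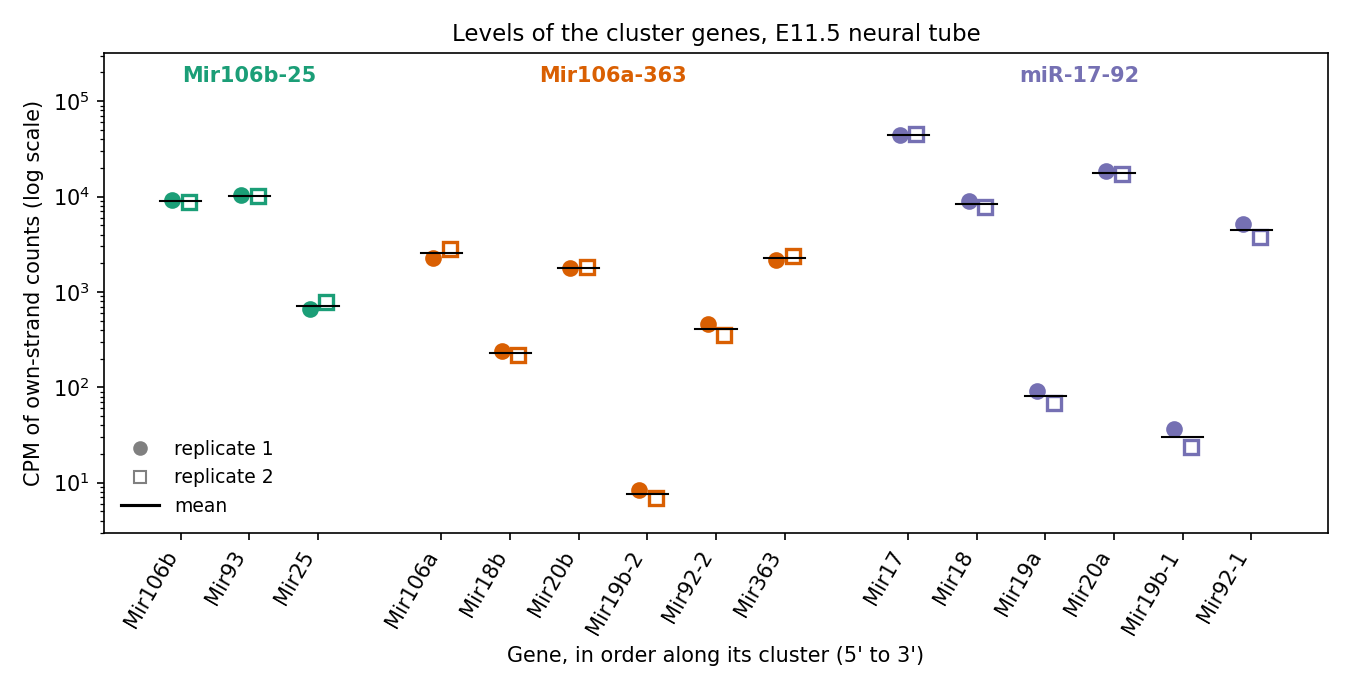
Level of each gene in CPM of own-strand counts (log axis) for the genes of the 3 clusters, in order along each cluster. Filled circles are replicate 1, open squares replicate 2 and bars the mean of both. Mir93 and Mir106b stand at 10234 and 9012 CPM on average, the Mir106a-363 genes run from 7.63 to 2541 CPM on average, and the 3 miR-19 genes are the lowest shown. Reads that fit both Mir92-1 and Mir92-2, or both Mir19b-1 and Mir19b-2, are not counted.

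All 6 genes of the Mir106a-363 cluster were detected in both libraries, at mean levels from 7.63 to 2541 CPM. Mir106a, the gene closest in sequence to Mir17, had 8397 counts (2264 CPM) in replicate 1 and 11432 counts (2819 CPM) in replicate 2, or 2541 ± 392 CPM at rank 63. Mir363, the last hairpin of the cluster, with no counterpart at that place in miR-17-92, had 7925 counts (2137 CPM) and 9720 counts (2397 CPM), or 2267 ± 184 CPM at rank 65. The ranges of Mir106a and Mir363 over the 2 libraries overlapped, but within each library Mir363 was the lower, at 94.4% of Mir106a counts in replicate 1 (95% exact interval 91.5 to 97.3) and 85.02% in the other library (82.7 to 87.4). Mir20b, a further carrier of the miR-17 seed, had 6539 counts (1763 CPM) and 7462 counts (1840 CPM), or 1801 ± 54.2 CPM at rank 71.

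The remaining genes of the X-linked cluster were lower. Mir92-2 had 1702 counts (459 CPM) in replicate 1 and 1447 counts (357 CPM) in replicate 2, or 408 ± 72.2 CPM at rank 131, counted without reads that its twin Mir92-1 matches equally well. Mir18b, of the family known for lowering connective tissue growth factor, had 888 counts (239 CPM) and 882 counts (217 CPM), or 228 ± 15.5 CPM at rank 157. Mir19b-2, of the miR-19 family, had 31 counts (8.36 CPM, 95% Poisson interval 5.68 to 11.9) and 28 counts (6.90 CPM, 4.59 to 9.98). Its mean of 7.63 ± 1.03 CPM, again without reads that its twin Mir19b-1 matches equally well, put it at rank 327. Mir19a of miR-17-92, whose strand differs from miR-19b-3p by C11U (the base of miR-19b-3p first) and has no identical copy, stood at 80.1 ± 16.7 CPM in the same libraries.

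The order of mean levels was Mir93, Mir106b, Mir106a, Mir363, Mir20b, Mir25, Mir92-2, Mir18b and Mir19b-2, and each library gave this same order. Of the 8 pairs of neighbours in it, the pair Mir106a and Mir363 had overlapping ranges and the other 7 did not. With 2 libraries the smallest two-sided p of a paired permutation test is 0.5, so the order rests on both libraries giving it. The mature strands are 21 to 23 nt long, and division of the levels by that length left the order unchanged in both libraries. The order along the transcripts was not the order of levels. Along the Mir106a-363 cluster, Mir106a, Mir20b and Mir363 were high in assigned reads, and Mir18b, Mir19b-2 and Mir92-2, which lie between them, were low. Mir19b-2 and Mir92-2 were counted without reads that their twins match equally well. Their places in the order of levels therefore hold for assigned reads only.

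Set against a miR-17-92 gene with the same seed, the paralogs of the X-linked cluster were lower in both libraries, and by unequal factors. Mir106a counts were 5.14% of those of Mir17 in replicate 1 (95% exact interval 5.03 to 5.25) and 6.30% in replicate 2 (6.18 to 6.42). Mir20b counts were 9.57% (9.33 to 9.82) and 10.7% (10.5 to 10.98) of those of Mir20a. Mir18b stood lowest of these, at 2.66% (2.48 to 2.84) and 2.78% (2.59 to 2.97) of Mir18. The intervals of Mir18b, Mir106a and Mir20b did not overlap each other in either library, so these 3 ratios differed beyond counting error. The place of Mir20b depends on its counterpart, since its strand differs at 2 positions from Mir20a and at 2 from Mir17. Mir20b counts were 77.9% and 65.3% of Mir106a counts in replicates 1 and 2. Set against Mir17, Mir20b would thus stand below Mir106a.

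The twins with identical strands gave 8.84% (8.41 to 9.29) and 9.59% (9.08 to 10.1) for Mir92-2 against Mir92-1. For Mir19b-2 against Mir19b-1 the values were 22.8% (14.9 to 33.9) and 29.2% (18.4 to 44.8), from 31 against 136 counts and 28 against 96. These 2 ratios cover only reads that could be assigned to a single copy.

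Of the genes in Mcm7, Mir93 and Mir106b share their seed with both Mir17 and Mir20a. Mir93 counts were 23.3% (23.1 to 23.6) and 22.8% (22.5 to 23.0) of those of Mir17, and Mir106b counts were 21.1% (20.9 to 21.4) and 19.5% (19.3 to 19.7). Against Mir20a, from which its strand differs at as many positions as from Mir17, Mir106b stood at 50.5% (49.8 to 51.1) and 50.8% (50.2 to 51.5). The 2 comparisons with Mir92-1 that follow set a gene with a strand of its own against one counted without the reads it shares with Mir92-2, so their size depends on reads not counted. Mir25 counts were 12.7% (12.1 to 13.2) of those of Mir92-1 in replicate 1 and 21.0% (20.2 to 21.9) in replicate 2. That 1.66-fold difference between the libraries was the largest among the 19 gene ratios computed. Mir92-1 itself stood at 5189 CPM in replicate 1 and 3721 CPM in replicate 2, and Mir25 at 657 and 783 CPM. Mir363, compared with the same gene, gave 41.2% (40.1 to 42.3) and 64.4% (62.8 to 66.1), and against Mir25 its ratio was 3.25 (3.11 to 3.40) and 3.06 (2.94 to 3.19), where the intervals overlapped.

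**Figure D2:**
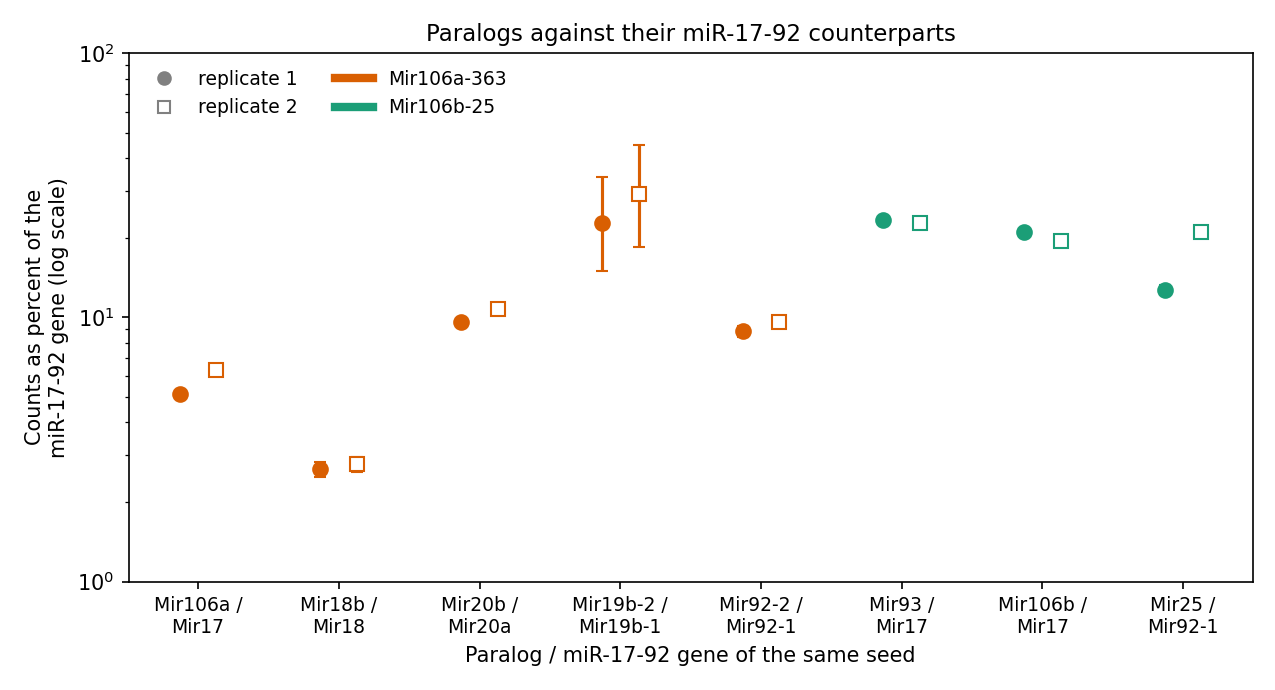
Counts of each paralog as a percentage of the counts of a miR-17-92 gene with the same seed (log axis), with 95% exact intervals that cover counting error only. Filled circles are replicate 1 and open squares replicate 2. Mir18b is lowest at 2.66% and 2.78%, Mir93 is at 23.3% and 22.8%, and Mir25 differs most between the libraries.

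As whole clusters, Mir106b-25 held 2.02% of own-strand counts in replicate 1 (95% Wilson interval 2.01 to 2.04) and 1.97% in replicate 2 (1.96 to 1.98), or 2.00% ± 0.0373. Mir106a-363 held 0.687% (0.679 to 0.696) and 0.764% (0.755 to 0.772), or 0.725% ± 0.0541, from 6 genes against 3. The ratio of Mir106b-25 to Mir106a-363 counts was thus 2.94 in replicate 1, with a 95% exact interval of 2.90 to 2.99, and 2.58 (2.55 to 2.61) in the other library. The miR-17-92 cluster exceeded Mir106b-25 by 3.80-fold and 3.73-fold, and Mir106a-363 by 11.2-fold and 9.63-fold. These sums leave out reads that fit both Mir92-1 and Mir92-2 or both Mir19b-1 and Mir19b-2. That touches miR-17-92 and Mir106a-363 but, among the hairpins searched, not Mir106b-25, and the intervals do not cover it. In assigned reads, the 3 clusters kept the same order in both libraries.

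MiRNAs with the same seed share many of their predicted targets. The share each cluster gave to a seed group was therefore computed over all measured genes with that seed in the RefSeq table. That table held hairpins for 869 of the 1973 genes, so other genes with a seed could be missing. A seed's counts are here the whole counts of its genes. They include any reads of the other strand of each hairpin, and the part of those reads was not analysed. For the miR-17 seed, 7 genes held 8.61% of own-strand counts in replicate 1 and 8.55% in replicate 2. Of these, Mir93 and Mir106b gave 22.7% (95% Wilson interval 22.6 to 22.9) and 22.1% (22.0 to 22.3), and Mir106a and Mir20b gave 4.68% (4.61 to 4.75) and 5.45% (5.37 to 5.53). The 4 paralogs together came to 27.4% (27.3 to 27.6) and 27.6% (27.4 to 27.7), and the rest was from Mir17 and Mir20a. The seventh gene, Mir6383, had 0 counts in both libraries, which allows up to 0.809 and 0.740 CPM.

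The miR-25/92 seed drew on all 3 clusters and on genes outside them, and its total leaves out the miR-92a-3p reads that fit both Mir92-1 and Mir92-2. In the reads that were counted, Mir92b, a miRNA known from neural progenitors, had the highest mean of its 7 genes at 4979 ± 383 CPM, next to Mir92-1 at 4455 ± 1038 CPM, and the ranges of these overlapped. Mir363, Mir25 and Mir92-2 gave 23.3% (22.9 to 23.6) of the seed's counts in replicate 1 and 29.0% (28.6 to 29.4) in replicate 2, of which Mir25 was 4.70% (4.52 to 4.89) and 6.41% (6.20 to 6.63). Mir32, which like Mir92b lies in none of the 3 clusters, stood at 272 ± 31.6 CPM, below Mir25 and Mir92-2. Mir367, also outside them and known from pluripotent cells, had 2 counts in replicate 1 and 0 in replicate 2.

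In the reads that were counted, the miR-18 and miR-19 seeds came mostly from miR-17-92. Mir18b gave 2.59% (2.43 to 2.76) and 2.70% (2.53 to 2.88) of the miR-18 seed's counts, the rest being Mir18. Mir19b-2 gave 6.10% (4.33 to 8.53) and 6.98% (4.87 to 9.91) of the miR-19 seed's counts, which numbered only 508 and 401 over 3 genes. The Mir106b-25 cluster has no gene with either seed. For miR-19b-3p, reads shared by its copies, which include all reads of the exact strand, are not in these sums. Which cluster they came from is not known. The counts of Mir19b-1 and Mir19b-2 are thus from reads not wholly within the shared run.

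**Figure D3:**
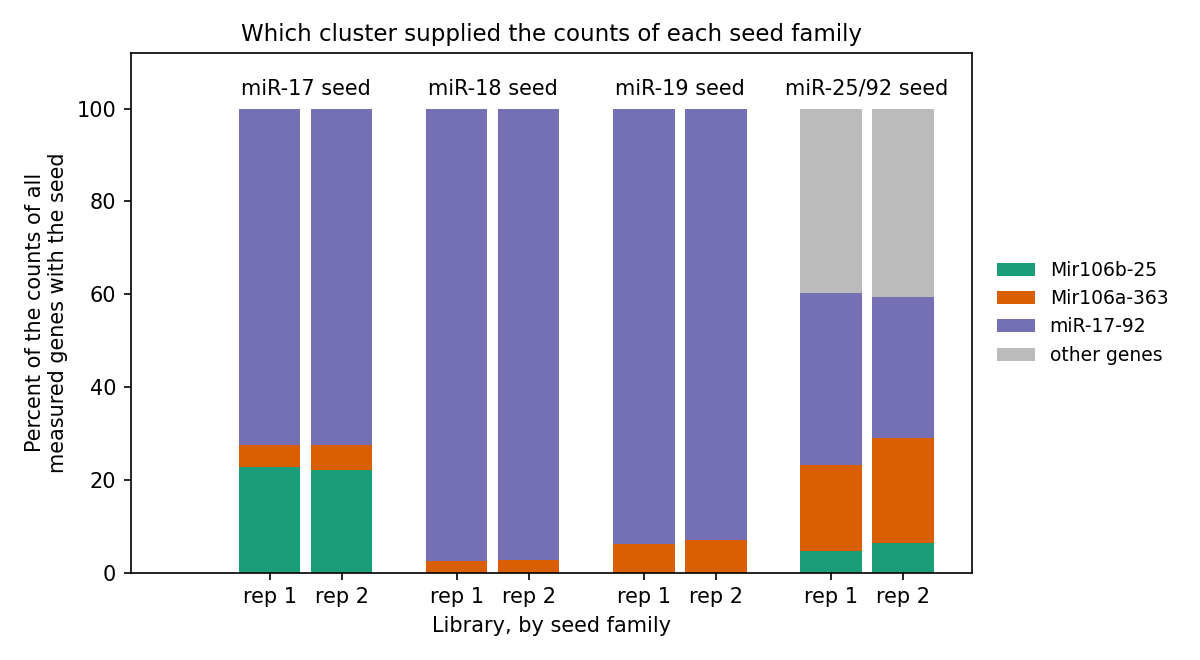
Percentage of the counts of all measured genes with a seed in the RefSeq table that came from each cluster, for the 4 seeds and both libraries (rep 1 and rep 2). Counts sum both strands of each hairpin and leave out reads that fit both of a pair of twins. Green and orange are the paralog clusters, purple is miR-17-92 and grey other genes. The paralogs give 27.4% and 27.6% of the miR-17 seed, 2.59% and 2.70% of the miR-18 seed, 6.10% and 6.98% of the miR-19 seed and 23.3% and 29.0% of the miR-25/92 seed.

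Between the libraries, the 9 genes differed by no more than 1.29-fold when scaled by total counts. A two-sided exact binomial test asked whether a gene's counts split between the libraries as the totals do, and its p-values were adjusted by Benjamini-Hochberg across the 444 genes that reached 10 counts in sum. The test compares these 2 libraries with counting noise, not conditions, and copies made by PCR make its p too small. Of the 9 genes, 6 (66.7%) passed at 0.05, against 53.2% of all tested genes, and nothing is read from that difference over 9 genes. Higher in replicate 2 were Mir106a by 1.24-fold (exact binomial adjusted p = 5.99e-52), Mir25 by 1.19-fold (2.93e-10), Mir363 by 1.12-fold (1.49e-13) and Mir20b by 1.04-fold (0.0242). Higher in replicate 1 were Mir92-2 by 1.29-fold (exact binomial adjusted p = 7.13e-12) and Mir106b by 1.07-fold (1.58e-16). Mir93 (exact binomial adjusted p = 0.413), Mir18b (0.0788) and Mir19b-2 (0.641) did not pass.

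Direction depended on the scaling. Of all tested genes, 45.3% were called higher in replicate 1 and 7.88% in replicate 2 with total counts, and the log2 ratio of replicate 1 over replicate 2 had a median of 0.27 over all tested genes and 0.01 over the 9. Scaling by edgeR's TMM factors, which centre the libraries on the bulk of genes, moved every log2 ratio by -0.28, and 18.5% and 21.6% of all genes were then called in these directions (40.1% in all). The 9 genes then gave 0 higher in replicate 1 and 6 higher in replicate 2, with a median of -0.27 against -0.02 over all genes. Mir106b turned from 0.09 to -0.19 on the log2 scale, Mir93 from 0.01 to -0.27, and Mir92-2 fell from 0.36 to 0.08 and no longer passed (exact binomial adjusted p = 0.247). With DESeq2 size factors, 7 of the 9 genes passed, 1 higher in replicate 1 (Mir92-2) and 6 higher in replicate 2, against 42.1% of all genes (23.0% and 19.1%). Mir106a, Mir25, Mir363 and Mir20b were higher in replicate 2 under all 3 scalings, Mir106a by 1.52-fold with TMM.

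A scaling shifts all genes by 1 amount and leaves their order as it is. In that order, 7 of the 9 genes lay on the replicate 2 side of the median tested gene, and Mir92-2 and Mir19b-2, those with identical twins, lay on the other side, Mir19b-2 within rounding of the median under total scaling (0.27). By summed CPM, replicate 1 over replicate 2 was 1.24 for neural, 1.36 for mesenchymal and 1.79 for muscle markers. It was 1.41 for red blood cell, 1.35 for white blood cell, 1.12 for endothelial, 1.10 for epithelial and 0.991 for liver markers. The median tested gene was itself higher in replicate 1 under this scaling. The part of these markers in the differences of the 9 genes was not tested. Within a cluster the ratio of 2 genes does not depend on scaling. Mir25 counts were 6.40% (95% exact interval 6.14 to 6.67) of Mir93 counts in replicate 1 and 7.68% (7.41 to 7.96) in replicate 2. Mir20b counts were 77.9% (75.4 to 80.4) and 65.3% (63.4 to 67.2) of Mir106a counts. Neither pair of intervals overlapped, so these ratios differed between the 2 libraries beyond counting error. The intervals, like the test, take no account of copies made by PCR. Each pool gave 1 library, so a difference of the pools and one of library preparation cannot be told apart.

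**Figure D4:**
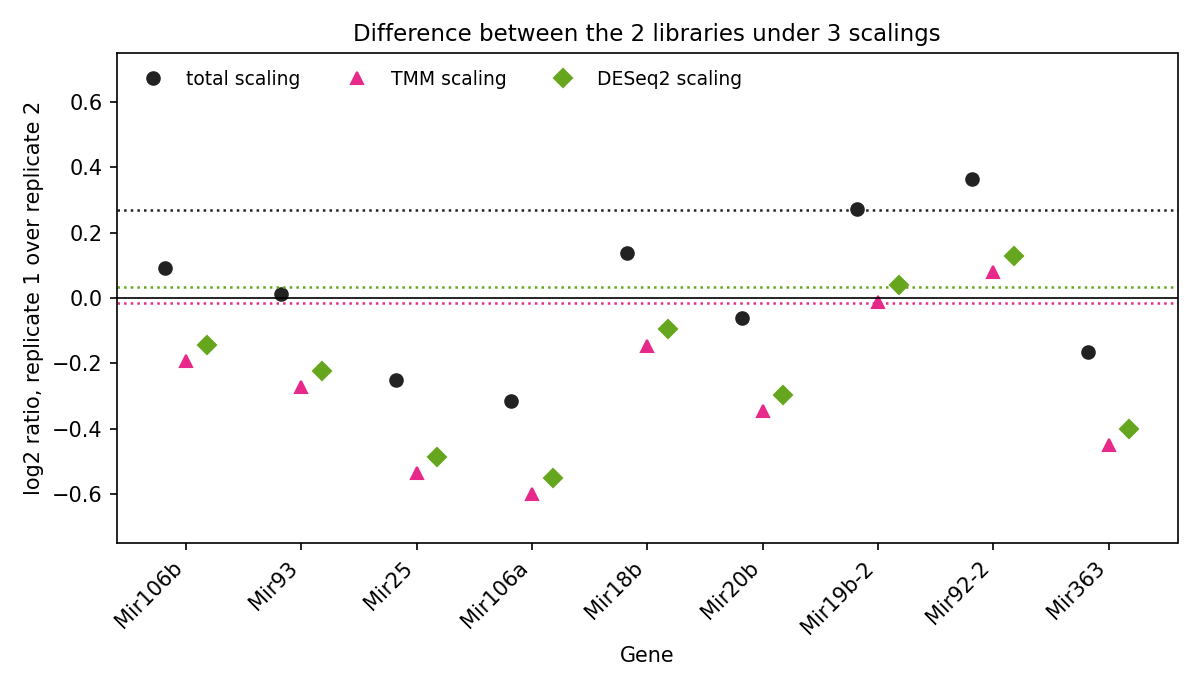
Log2 ratio of replicate 1 over replicate 2 for the 9 paralog genes under total, TMM and DESeq2 scaling. Dotted lines of the same colours mark the median over all 444 tested genes. Mir106a is lowest and Mir92-2 highest, and 7 of the 9 genes lie below the median line, an order that no scaling can alter since each shifts all genes alike.

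The genes nearest in level to the leading member of each cluster were found by Euclidean distance of log2(CPM + 1) over the 2 libraries, leaving out the 9 genes. Nearest to Mir93 were Mir26b (10878 ± 261 CPM, distance 0.13), Mirlet7g (10021 ± 978 CPM, 0.14) and Mir196b (11059 ± 664 CPM, 0.18). Nearest to Mir106a were Mir139 (2228 ± 53.5 CPM, 0.32), Mir135b (2457 ± 187 CPM, 0.34) and Mir872 (3019 ± 1.07 CPM, 0.43). With 2 libraries this measure is little more than likeness in level.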

How the data were processed

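Small RNA from 2 pools of E11.5 neural tube was sequenced. The authors deposited raw read counts per miRNA gene for mm10 and GENCODE M4, per the file headers, in 3 columns (either, own and opposite strand, read from their layout and values), and own-strand counts were used. For the aligner and the counter, names and versions were not given in the sources used here. Rows naming no gene held 56.5% and 47.0% of reads in replicates 1 and 2 and were left out of totals and tests. Nothing beyond separate pools is stated about the replicates. The p-values set these 2 libraries against counting noise and measure no spread between pools.

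Symbols and coordinates came from GENCODE M21 (GRCm38), which matched 1894 of 1973 genes by identifier, and mature strands from RefSeq, which held hairpins for 869 of the 1973. Shared stretches were searched as exact matches among GENCODE M21 hairpins. CPM used the sum of own-strand counts. Log2 ratios carry a pseudocount of 0.5 counts. Share intervals are 95% Wilson intervals, and ratio intervals are exact Clopper-Pearson intervals of a pair's share turned into odds. Intervals and the limit that a count of 0 allows (3 counts) cover counting error only. The binomial test was run on simulated counts that held counting noise alone, as the test assumes. That checks the calculation and not how well the test suits these pools. R 4.3.3 gave the TMM factors over all genes (edgeR 4.0.16) and the size factors (DESeq2 1.42.0). All else ran in Python 3.11.15 (scipy 1.17.1, pandas 2.3.3, numpy 2.4.6). Alternatives were the scaling, strand, count filter, pseudocount, genes without twins and each library alone.

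Named genes were the 9 members, miR-17-92, up to 4 further genes per seed and the 3 genes nearest in level to each cluster's leading member. Members and lists were chosen with earlier results of these data known.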

Additional observations from a re-analysis of the deposited data

How the results depend on the processing

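The count of paralog genes passing the exact binomial test was 6 or 7 of the tested ones under all 6 alternatives, and that of all genes 178 to 245 against 236. The share of all genes was not stable, since the count filter changes how many are tested. It was 229 of 724 with at least 1 summed count and 225 of 301 with at least 100, against 236 of 444. Of the paralogs, 6 of 9 and 6 of 8 passed under these 2 filters, and nothing is read from that. Directions changed with the scaling alone. Mir106b, at 0.09 on the log2 scale of replicate 1 over replicate 2, was -0.19 with TMM, -0.14 with DESeq2 size factors and -0.12 with the total without the 10 most abundant genes (for these ratios chosen after seeing the data). Mir93, at 0.01, was -0.27, -0.22 and -0.20, and Mir18b, at 0.14 and past the threshold under none of these scalings, -0.15, -0.10 and -0.068. Mir19b-2, at 0.27, was -0.011 with TMM. The share of Mir106b-25 was 1.96% in counts of either strand. In genes without a twin of identical strand, the share of miR-17-92 was 7.07% and its ratio to Mir106b-25 was 3.54. Leaving out the 10 most abundant genes raised each level more than 2-fold. With 1 library each, the cluster shares ranged from 1.97% to 2.02% for Mir106b-25, 0.687% to 0.764% for Mir106a-363 and 7.36% to 7.68% for miR-17-92. The ratios ranged from 2.58 to 2.94 for Mir106b-25 over Mir106a-363, and for miR-17-92 from 3.73 to 3.80 over Mir106b-25 and from 9.63 to 11.2 over Mir106a-363. No paired analysis was possible because there is 1 group. Depth limits Mir19b-2 most, with 59 counts in all.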
